A study of Vaccinium corymbosum with 9 samples.

Results

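The genes that blueberry annotates to aromatic amino acid synthesis were followed from hard green fruit to ripe fruit. They are the rows of the deposited gene table that carry the GO term for aromatic amino acid family biosynthesis or the term for chorismate biosynthesis. There were 71 of them among 93716 genes, 55 with both terms, 13 with the first alone and 3 with the second alone. Sorted by the enzyme each was annotated as, they comprised 15 genes for DAHP synthase, 8 for 3-dehydroquinate synthase, 13 for dehydroquinate dehydratase/shikimate dehydrogenase, 7 for shikimate kinase, 7 for EPSP synthase, 4 for chorismate synthase and 12 for chorismate mutase, with 5 others. The enzyme names rest on the KEGG ortholog or the annotated function.

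The shikimate pathway builds chorismate in the plastid from phosphoenolpyruvate of glycolysis and erythrose 4-phosphate of the pentose phosphate pathway. DAHP synthase commits the substrates, and the enzymes after it close the ring, reduce it, phosphorylate it, add a further phosphoenolpyruvate and release chorismate. Chorismate mutase then opens the branch to phenylalanine and tyrosine, while anthranilate synthase opens the branch to tryptophan. In a berry that colors on ripening, phenylalanine is the starting material of phenylpropanoids, lignin and the anthocyanin pigments.

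Fruit of Vaccinium corymbosum of the genotype Bluecrop, from plants grown in an orchard without any treatment, was sampled when early green, at color break and when mature. RNA-seq was made from 3 libraries per stage, 9 in all, which the labels call independent biological replicates, and early green served as the baseline of a study of the wax on the fruit surface. The text on library construction names a Populus hybrid under alkaline stress, whereas organism and gene identifiers point to blueberry. RNA came from ground fruit of many cell types, so fewer cells of a type and less RNA per cell cannot be told apart in any value below.

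The deposited counts, estimates that the authors' software made for each gene, summed to between 52919289 and 67604266 per library. Color break replicate 3 stood apart, at 67.6 on the leading principal component against 125 and 113 for the other color break libraries. On the next component it was at -21.8, against 80.1 and 67.5 for those libraries and -24.4 to -75.8 for mature fruit. Over all tested genes it correlated at 0.939 and 0.944 with the other color break libraries and at 0.941 to 0.948 with the mature ones. The storage protein genes typical of seeds took 4.99% of counts in green fruit against 0.304% at color break and 0.269% in mature fruit. Genes listed by KEGG ortholog for lignifying cells took 0.138%, 0.533% and 0.454%. Light-harvesting genes took 0.0386%, 0.0243% and 0.0186%, and genes listed by ortholog for defence 0.0257%, 0.0270% and 0.0232%. Whether the ortholog lists mark lignifying cells or defence in coloring fruit was not examined. No member belongs to any of these marker lists, and their part in the results was not tested. Leaving out the seed storage genes, a choice made after the data were seen, left 36 members rising and 1 falling at color break, the counts found with them. With them 8.89% of all genes tested rose and 13.9% fell, and the shares without them are not given here. Leaving them out drops only the rows of those genes and leaves all other RNA of seeds in place. It therefore cannot test what part seeds have in the results. FPKM, fragments per kilobase of gene scaled to the depth of the library, is the level used below, and log2 changes are edgeR estimates ± SE on the counts after TMM scaling, which moved the median of all genes from -0.31 to -0.01 between green and color break, and from -0.29 to -0.01 between green and mature.

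As a set, the members were a small share of the transcripts of green fruit and a larger one afterwards. Their FPKM summed to 1009, 1009 and 995 in the green libraries, 4277, 4586 and 4223 at color break, and 4249, 4222 and 3785.2 in mature fruit. Every ripening library lay above every green library, and the color break and mature libraries overlapped. In counts the members took 0.235% to 0.240% of each green library, 0.993% to 1.08% at color break and 0.886% to 0.997% in mature fruit.

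Of the 71 members, 57 reached 1 FPKM in at least 3 libraries and were tested. Of these, 50 had at least 1 FPKM in all 9 libraries, 4 reached it in every library of green fruit but of neither later stage, and 2 were under 1 FPKM in at least 1 green library. A call required a log2 change of at least 1 in size and an adjusted p (Benjamini-Hochberg, over all 48073 genes tested) under 0.05. From green to color break 36 members rose, 1 fell and 20 were not called, with a median log2 change of 1.52, while among all genes tested 22.8% were called, 8.89% rising and 13.9% falling, with a median of -0.01. The calls were spread unevenly over the enzymes: 11 of 14 tested DAHP synthase genes rose, 1 of 7 for 3-dehydroquinate synthase, 8 of 12 for dehydroquinate dehydratase/shikimate dehydrogenase, 2 of 3 for shikimate kinase, 7 of 7 for EPSP synthase, 4 of 4 for chorismate synthase and 3 of 8 for chorismate mutase.

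**Figure D1:**
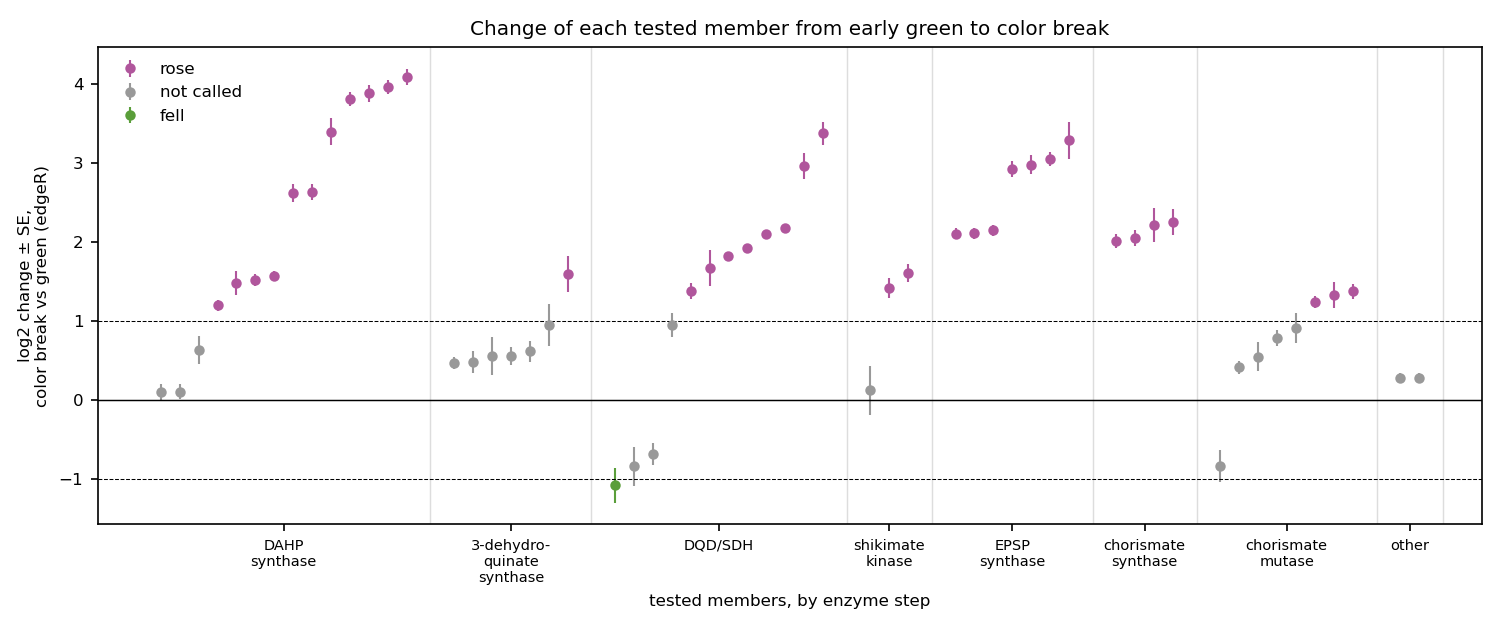
The log2 change from early green to color break of each of the 57 tested members, with its SE, grouped by enzyme step (DQD/SDH, dehydroquinate dehydratase/shikimate dehydrogenase). Dashed lines mark a log2 change of 1 in each direction; all 7 EPSP synthase and all 4 chorismate synthase genes lie above the upper line, whereas 6 of the 7 tested 3-dehydroquinate synthase genes lie below it.

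Most of these genes share their best-matching protein with other members. How alike their sequences are was not examined here, so how reads were shared out among them is uncertain and each enzyme is also given as a sum. When the counts of each enzyme were summed and fitted with all other genes, where 22.7% of rows were called at color break, 6 of the 7 enzyme totals rose from green to color break. The total for DAHP synthase changed by 3.39 ± 0.08 on the log2 scale (edgeR adjusted p = 1.7e-09), that for EPSP synthase by 2.66 ± 0.07 (2.2e-09), and that for chorismate synthase by 2.09 ± 0.07 (9.8e-09). Dehydroquinate dehydratase/shikimate dehydrogenase followed with 1.87 ± 0.04 (8.9e-10), shikimate kinase with 1.49 ± 0.11 (1.8e-06) and chorismate mutase with 1.15 ± 0.07 (1.1e-06). The total for 3-dehydroquinate synthase changed by 0.56 ± 0.06 (3.7e-05), under the size required for a call. With library size in place of TMM the chorismate mutase total was at 0.85 and no longer called, and the other 5 rising totals stayed called.

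**Figure D2:**
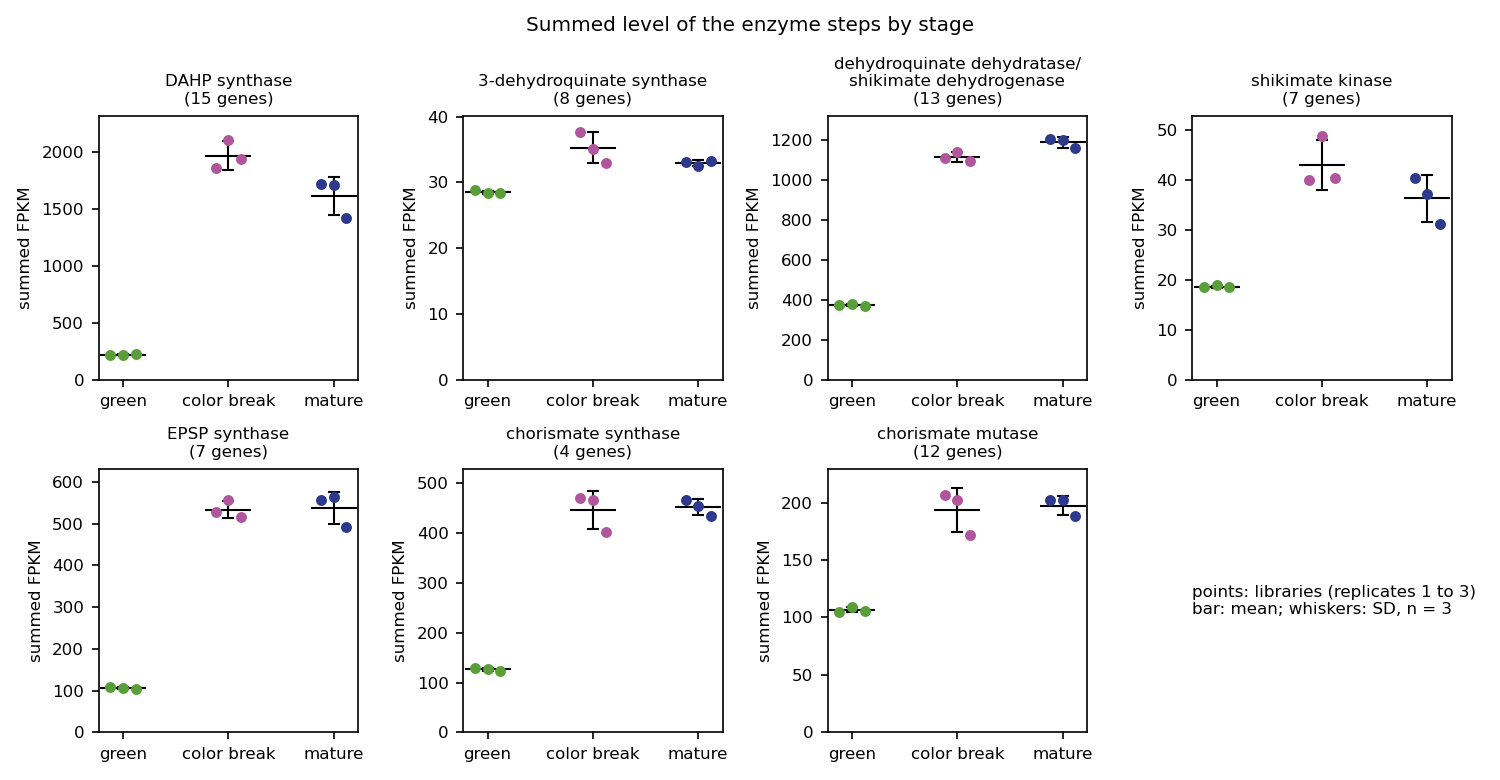
FPKM summed over all genes of each enzyme step (vertical axis, from 0) in the 3 libraries of each stage, with the mean and the SD. DAHP synthase goes from 216 to 222 FPKM in green libraries to 1859 to 2112 at color break, whereas 3-dehydroquinate synthase stays between 28.3 and 37.7 FPKM in all 9 libraries.

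DAHP synthase, the entry enzyme, had the largest total change of the enzymes of the set. Its 15 genes summed to 220, 216 and 222 FPKM in the green libraries, 1859, 2112 and 1944 at color break, and 1719, 1712 and 1424 in mature fruit. The 3 stages did not overlap. Its share of the members' summed FPKM was 21.9% ± 0.486 in green fruit, 45.2% ± 1.49 at color break and 39.5% ± 1.67 in mature fruit (SD, n = 3).

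The rise of DAHP synthase was carried by 4 genes that share the best-matching protein Vadar_016689 in the deposited annotation. The highest of them, VaccDscaff18-processed-gene-70.25 (minus strand of scaffold 18, 7068600 to 7074104, 6 exons), had 66.9, 67.2 and 70.2 FPKM in green, 756, 866 and 758 at color break, and 687, 679 and 562 in mature fruit. Every color break library was above every mature library, and all of both lay far above green. The gene changed by 3.82 ± 0.09 on the log2 scale from green to color break (edgeR adjusted p = 1.9e-09).

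The other 3 copies of that group had changes of like size. VaccDscaff16-augustus-gene-328.28 (plus strand of scaffold 16, 32820739 to 32826623, 5 exons) had 36.8, 36.0 and 39.3 FPKM in green, 496, 568 and 525 at color break, and 454, 449 and 364 in mature fruit. Its change of 4.10 ± 0.10 to color break (edgeR adjusted p = 1.9e-09) was the largest estimate of the 57 tested members, and its SE overlapped that of the next. VaccDscaff7-processed-gene-79.3 (scaffold 7, 7889331 to 7895207, 6 exons) went from 14.4 ± 0.578 to 187 ± 10.5 and 144 ± 15.3 FPKM (SD, n = 3), a log2 change of 3.97 ± 0.09 to color break (1.2e-09). VaccDscaff31-snap-gene-275.28 (scaffold 31, 27496591 to 27503094, 5 exons) went from 20.5 ± 1.24 to 251 ± 24.8 and 194 ± 22.99 FPKM, a log2 change of 3.89 ± 0.11 (5.6e-09). In both genes, as in the copy on scaffold 16, the libraries of the 3 stages did not overlap.

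The other DAHP synthase genes rose less or were not called. The 3 genes that match Vadar_016353 summed to 20.5, 19.9 and 20.6 FPKM in green, 106, 107 and 145 at color break, and 100, 106 and 89.8 in mature fruit, and all 3 rose to color break, by 2.62 to 3.40 on the log2 scale. The highest of those values came from color break replicate 3, the library that stood apart. The 4 genes that match Vadar_023604 summed to 29.3, 28.9 and 28.4 FPKM in green, 62.8, 66.4 and 64.7 at color break, and 91.3, 94.0 and 86.8 in mature fruit, so that their libraries stepped up without overlap at both transitions. All 4 rose to color break, by 1.198 to 1.57 on the log2 scale.

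In 3 tested DAHP synthase genes, chosen here after their values were seen, no call was made. VaccDscaff17-snap-gene-117.34 had 19.1, 14.7 and 13.9 FPKM in green, 13.5, 14.7 and 14.03 at color break, and 13.01, 12.5 and 13.3 in mature fruit, a log2 change to color break of 0.10 ± 0.11 (edgeR adjusted p = 0.462). VaccDscaff45-augustus-gene-76.23 had 10.998, 13.1 and 12.6 FPKM in green, 12.4, 9.92 and 10.2 at color break, and 11.1, 10.9 and 11.4 in mature fruit, with green and color break overlapping. VaccDscaff34-augustus-gene-235.26, which shares the match Vadar_023812 with it, stayed between 1.00 and 1.62 FPKM in all 9 libraries. The share of the step's FPKM held by the 4 copies of the Vadar_016689 group was 63.9% ± 1.22 in green, 89.3% ± 1.33 at color break and 86.6% ± 0.826 in mature fruit (SD, n = 3). The remaining gene of the step, VaccDscaff46-processed-gene-130.8, was at 0.529 to 0.843 FPKM throughout and was not tested.

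**Figure D3:**
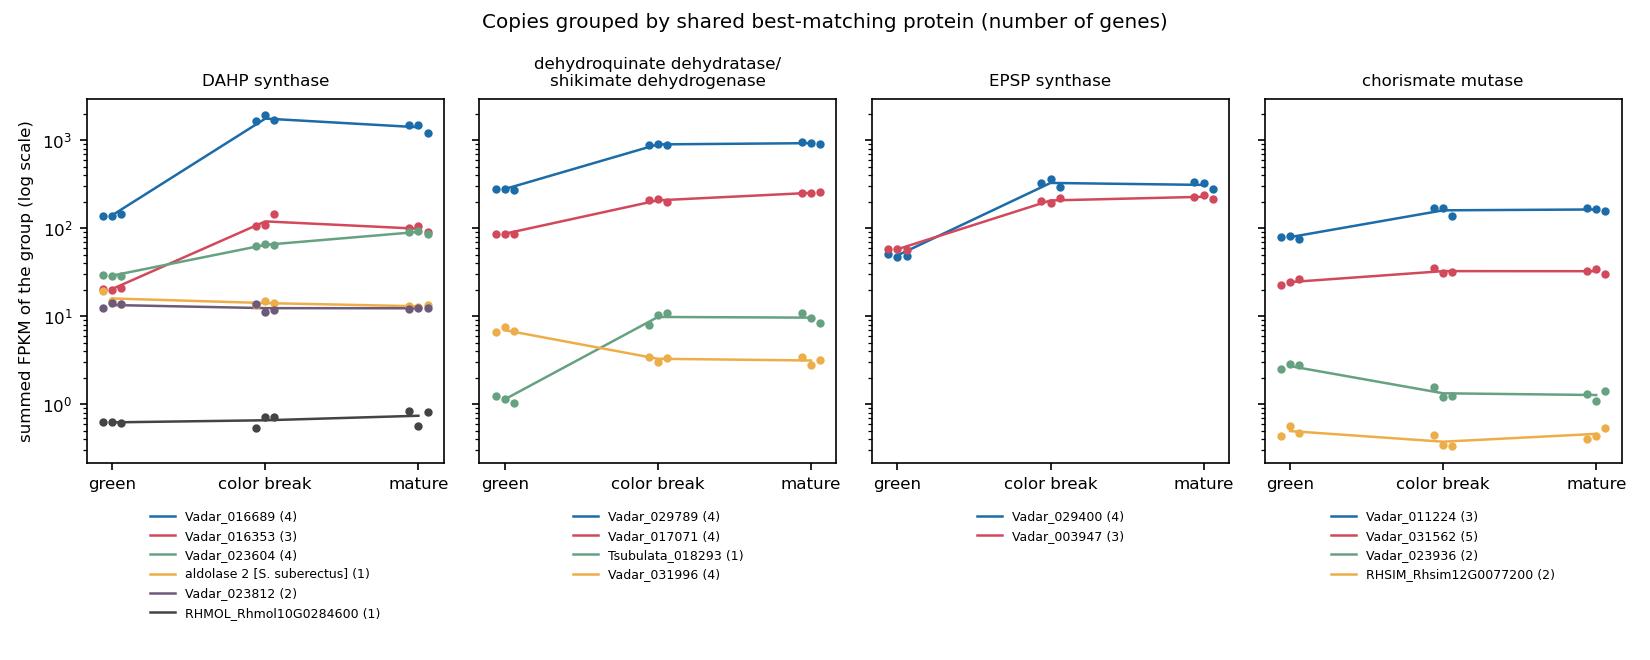
FPKM summed over genes that share a best-matching protein (log scale), per library (points) and as the stage mean (lines), for 4 of the enzyme steps. In DAHP synthase the Vadar_016689 group goes from a mean of 140 to 1760 FPKM and the Vadar_023812 pair stays near 13.4 to 12.3, and in dehydroquinate dehydratase/shikimate dehydrogenase the Vadar_031996 group goes down from 6.93 to 3.27 FPKM.

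3-Dehydroquinate synthase, which closes the ring, was the enzyme total of the set with the smallest change at color break. Its 8 genes summed to 28.8, 28.3 and 28.4 FPKM in green, 37.7, 35.1 and 33.0 at color break, and 33.1, 32.5 and 33.3 in mature fruit. Green lay below the other stages in every library, by a narrow margin. The highest copy, VaccDscaff13-processed-gene-40.0 (minus strand of scaffold 13, 3976773 to 3991987, 19 exons), had 10.01, 9.45 and 9.34 FPKM in green, 11.4, 11.8 and 9.81 at color break, and 11.7, 10.6 and 11.1 in mature fruit. Its green and color break libraries overlapped, and its log2 change of 0.47 ± 0.08 was not called (edgeR adjusted p = 0.00067).

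The copy of this enzyme that rose to color break was expressed weakly. VaccDscaff53-augustus-gene-8.36 (plus strand of scaffold 53, 803106 to 811682) had 0.926, 0.661 and 0.895 FPKM in green, 2.25, 2.06 and 1.88 at color break, and 0.135, 0.260 and 0.215 in mature fruit. It was thus highest at color break and lowest in mature fruit, with no overlap between any of the stages. It reached 1 FPKM at color break alone and was tested only through that stage, so its differences from the others depend on how it was selected. The log2 change was 1.59 ± 0.23 to color break (edgeR adjusted p = 0.00025), and -3.34 ± 0.25 from color break to mature (0.0008). The model of this gene has 15 exons against 8 in each of the other 3 genes that match Vadar_017466, and those 3 were at 0.0142 to 4.28 FPKM over the 9 libraries, with no call in the 2 that were tested. On log2(FPKM + 1), where low genes are compressed, its change was 0.75 to color break and -0.60 from green to mature, and neither was called.

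The dehydroquinate dehydratase/shikimate dehydrogenase of plants is a fused enzyme that carries the dehydration and the reduction leading to shikimate. Its 13 genes summed to 373, 377 and 369 FPKM in green, 1113, 1141 and 1094 at color break, and 1209, 1200 and 1161 in mature fruit. In green fruit it was the most abundant step of the set, with 37.1% ± 0.207 of the members' FPKM, against 25.6% ± 0.625 at color break (SD, n = 3). Mature libraries were all above color break libraries, but the total changed by 0.07 ± 0.04 between them (edgeR adjusted p = 0.362).

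Among these genes the 4 copies that match Vadar_029789 held 74.7% ± 0.0769 of the step's FPKM in green and 80.3% ± 0.400 at color break (SD, n = 3). The highest, VaccDscaff16-processed-gene-258.5 (plus strand of scaffold 16, 25863547 to 25874088, 10 exons), had 99.1, 102 and 98.3 FPKM in green, 329, 314 and 298 at color break, and 335, 330 and 322 in mature fruit. Green was far below the ripening stages, which overlapped. The log2 change to color break was 1.93 ± 0.05 (edgeR adjusted p = 2.9e-09), within the 1.82 to 2.17 of the 4 copies.

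The largest rise of this enzyme was in a low gene. VaccDscaff22-snap-gene-22.44 (minus strand of scaffold 22, 2254377 to 2279547, 19 exons) had 1.23, 1.14 and 1.03 FPKM in green, 7.98, 10.4 and 10.96 at color break, and 10.9, 9.63 and 8.32 in mature fruit. Green was far below both ripening stages, which overlapped, and the log2 change to color break was 3.38 ± 0.15 (edgeR adjusted p = 9.0e-08). The gene beside it on the same strand, VaccDscaff22-snap-gene-22.45 (2243622 to 2252103, 11 exons), chosen after its values were seen, is also a member. It went from 2.10 ± 0.304 to 13.6 ± 2.37 and 15.03 ± 1.74 FPKM (SD, n = 3), a log2 change of 2.97 ± 0.16 to color break (3.1e-07), whereas the other copies of its match group Vadar_017071 changed by 0.95 to 1.67.

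A further group of this enzyme went the other way. The 4 genes that match Vadar_031996 summed to 6.56, 7.44 and 6.78 FPKM in green, 3.42, 3.03 and 3.37 at color break, and 3.43, 2.82 and 3.15 in mature fruit, with green above every later library. VaccDscaff114-augustus-gene-3.58 (plus strand of scaffold 114, 444778 to 456062, 10 exons) had 1.28, 1.52 and 1.58 FPKM in green, 0.614, 0.646 and 0.449 at color break, and 0.519, 0.676 and 0.494 in mature fruit. It fell by 1.08 ± 0.22 on the log2 scale to color break (edgeR adjusted p = 0.0022), the only member called as lower there. It is 1 of the 4 members that reached 1 FPKM in every library of green fruit and not in every library of a later stage, and it passed the filter through green fruit alone, where it is highest. The call was lost without color break replicate 3, at -0.93, with no filter on low values, at -0.98, and under limma on log2(FPKM + 1), at -0.65. VaccDscaff51-augustus-gene-18.25 (plus strand of scaffold 51, 1831638 to 1843087, 9 exons) had 2.75, 2.61 and 2.35 FPKM in green, 1.36, 1.28 and 1.33 at color break, and 1.21, 0.937 and 1.02 in mature fruit. Its change to color break was -0.68 ± 0.14 and was not called, and it fell by 1.03 ± 0.14 from green to mature (0.00016), a call lost at -0.97, -0.95 and -0.997 without green replicate 1, mature replicate 2 or mature replicate 3, and also with no filter, at -0.93, and under limma on log2(FPKM + 1), at -0.80. The Vadar_029789 group had 37.9 to 42.4 times the summed FPKM of this group in the green libraries and 260 to 301 times at color break.

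Shikimate kinase, which phosphorylates shikimate, was the least abundant step of green fruit among the 7 enzymes. Its 7 genes summed to 18.5, 18.9 and 18.5 FPKM in green, 40.0, 48.7 and 40.4 at color break, and 40.4, 37.2 and 31.2 in mature fruit, and the last stages overlapped. VaccDscaff38-augustus-gene-97.23 (minus strand of scaffold 38, 9694766 to 9703602, 11 exons) had 11.1, 12.01 and 12.3 FPKM in green, 27.6, 33.8 and 27.8 at color break, and 28.9, 25.2 and 22.1 in mature fruit. It rose by 1.61 ± 0.11 on the log2 scale to color break (edgeR adjusted p = 1.7e-06), with green below all later libraries. Of the other 6 copies, 1 rose, 1 stayed between 0.788 and 1.87 FPKM without a call, and 4 were at 0.194 FPKM or less in every library and were not tested.

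EPSP synthase adds the further phosphoenolpyruvate and is the target of the herbicide glyphosate. All 7 of its genes were tested and all 7 rose to color break, by 2.11 to 3.29 on the log2 scale. They summed to 110, 106 and 105 FPKM in green, 527, 556 and 516 at color break, and 558, 563 and 492 in mature fruit, where the ripening stages overlapped. The highest, VaccDscaff23-augustus-gene-128.29 (minus strand of scaffold 23, 12834314 to 12842600, 8 exons), had 19.2, 18.01 and 16.2 FPKM in green, 114, 131 and 105 at color break, and 114, 105 and 89.8 in mature fruit. Its green libraries were far below the rest, and its log2 change was 2.98 ± 0.12 (edgeR adjusted p = 4.0e-08).

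Another gene on scaffold 23 had the largest estimate of this step, with a wider error. VaccDscaff23-processed-gene-119.12 (plus strand, 11905929 to 11914269, 9 exons) had 3.54, 2.32 and 3.83 FPKM in green, 28.3, 28.5 and 21.8 at color break, and 18.9, 28.4 and 24.5 in mature fruit. It changed by 3.29 ± 0.23 to color break (edgeR adjusted p = 6.1e-06), and its ripening stages overlapped. The 4 genes that match Vadar_029400 had 0.820 to 0.878 times the summed FPKM of the 3 that match Vadar_003947 in the green libraries, 1.34 to 1.84 times at color break and 1.28 to 1.46 times in mature fruit. In the latter group the genes on scaffolds 612 and 679, chosen after their values were seen, had models of the same length, 1766 bases, and 24.4 ± 0.445 and 23.9 ± 0.555 FPKM in green (SD, n = 3), and whether their reads can be told apart was not tested.

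Chorismate synthase, the last step of the shared pathway, had 4 genes, all of which match Vadar_022556 and have 13 exons. They summed to 129, 128 and 123 FPKM in green, 471, 467 and 401 at color break, and 466, 455 and 434 in mature fruit. Green was below all other libraries, and the ripening stages overlapped. All 4 rose to color break, within the narrow span of 2.01 to 2.26 on the log2 scale.

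The copies of chorismate synthase differed in level more than in change. VaccDscaff28-snap-gene-293.33 (minus strand of scaffold 28, 29297704 to 29306718) had 52.6, 62.4 and 51.2 FPKM in green, 197, 192 and 165 at color break, and 190, 186 and 177 in mature fruit, a log2 change to color break of 2.01 ± 0.09 (edgeR adjusted p = 8.3e-08). VaccDscaff20-snap-gene-65.45 (plus strand of scaffold 20, 6573718 to 6582516) had 21.5, 13.4 and 20.7 FPKM in green, 77.1, 75.2 and 67.98 at color break, and 71.9, 72.1 and 68.1 in mature fruit, a change of 2.26 ± 0.17 (5.3e-06). VaccDscaff48-snap-gene-57.36 (minus strand of scaffold 48, 5733206 to 5742122) had 23.2, 12.9 and 20.9 FPKM in green, 74.1, 83.1 and 62.4 at color break, and 78.5, 82.3 and 75.9 in mature fruit, a change of 2.22 ± 0.21 (4.0e-05). In green replicate 2 the genes on scaffolds 20 and 48 were lower, and that on scaffold 28 higher, than in the other green libraries, and the sum over the 4 copies in that library, 128 FPKM, lay between the other green libraries.

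Chorismate mutase turns chorismate towards phenylalanine and tyrosine, with plastid forms for synthesis and a cytosolic form of less settled use in plants. Its 12 genes summed to 105, 109 and 106 FPKM in green, 207, 203 and 172 at color break, and 202, 202 and 188 in mature fruit, and the ripening stages overlapped. The 3 genes annotated to the chloroplast stroma, which match Vadar_011224, summed to 79.3, 81.7 and 76.3 FPKM in green, 170, 170 and 139 at color break, and 168, 166 and 156 in mature fruit, and all 3 rose to color break. The 5 genes annotated to the cytosol, which match Vadar_031562, summed to 22.8, 24.2 and 26.2 FPKM in green, 34.8, 30.9 and 31.7 at color break, and 32.3, 34.7 and 30.2 in mature fruit, and none of the 4 tested was called by edgeR, their adjusted p of 0.00014 to 0.0274 coming with changes under the required size. The tested cytosolic genes changed by 0.41 to 0.91 on the log2 scale to color break and the plastid genes by 1.24 to 1.38, and the difference between the groups was not tested. The summed FPKM of the plastid group was 2.92 to 3.49 times that of the cytosolic group in green libraries, 4.37 to 5.51 times at color break and 4.78 to 5.19 times in mature fruit.

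Within the plastid group, VaccDscaff16-augustus-gene-67.37 (minus strand of scaffold 16, 6764282 to 6769256, 6 exons) had 49.9, 49.9 and 49.1 FPKM in green, 102, 103 and 85.4 at color break, and 101, 101 and 94.5 in mature fruit. Green lay below all later libraries, with a log2 change of 1.24 ± 0.08 to color break (edgeR adjusted p = 6.5e-07), but this call was lost in 4 alternatives, at 0.98 among genes with a mean of at least 5 FPKM, 0.94 with library size as the scaling, 0.94 under limma on log2(FPKM + 1) and 0.96 under limma on log2(FPKM + 0.1). Its call from green to mature was lost in the last 3 of these, at 0.97 to 0.99. The gene shares 243 bases with a gene on the opposite strand, and the strand setting of the counting is not stated in the labels or headers. VaccDscaff18-snap-gene-329.39 (plus strand of scaffold 18, 32898140 to 32902902, 6 exons) had 22.5, 25.6 and 21.8 FPKM in green, 53.1, 53.3 and 43.5 at color break, and 53.6, 53.4 and 48.8 in mature fruit. It rose by 1.38 ± 0.09 to color break (1.4e-06), the largest estimate of the step, with overlapping ripening stages. The remaining 4 genes of the enzyme were low: those that match Vadar_023936 summed to 2.48, 2.86 and 2.78 FPKM in green, 1.55, 1.198 and 1.23 at color break and 1.29, 1.08 and 1.43 in mature fruit, green being above the rest, and the last 2 summed to 0.333 to 0.569 in all libraries. Opposite-strand overlaps also occur in 5 further members, 4 of them chorismate mutase genes.

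Of the 5 members outside the named enzymes, 2 were tested and were not called in any comparison. VaccDscaff27-snap-gene-80.21, whose GO terms give it DAHP synthase activity while its KEGG ortholog is another protein, stayed between 12.7 and 14.9 FPKM in the 9 libraries. VaccDscaff30-augustus-gene-328.29, assigned to a type of dehydroquinate synthase described from archaea, stayed between 8.04 and 8.79 FPKM. The other 3 share the match Vadar_023642, and 2 of them are assigned to plant MYB transcription factors. These 3 summed to 1.92, 2.50 and 1.32 FPKM in green, 0.219, 0.366 and 0.378 at color break, and 0.197, 0.167 and 0.243 in mature fruit. They were lower in every ripening library than in any green library, at levels too low to pass the filter.

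In all, 14 members were not tested: 4 shikimate kinase genes, 4 chorismate mutase genes, the 3 of the MYB match, and 1 gene each of DAHP synthase, 3-dehydroquinate synthase and dehydroquinate dehydratase/shikimate dehydrogenase. Of the 14, 12 were under 1 FPKM in every library. With the filter dropped, 40 of the 71 members rose and 1 fell at color break, where 17.4% of all genes were called. Among the 44 members with a mean of at least 5 FPKM over all libraries, 32 rose and none fell, beside 9.50% and 9.13% of all genes at that level.

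The comparison of mature with color break fruit asks what changed after coloring had begun. A single member was called of the 57 tested, VaccDscaff53-augustus-gene-8.36, which fell and had been tested only through its level at color break, while 1.37% of all genes were called in this comparison, 0.763% rising and 0.612% falling. The median log2 change of the members was -0.03. Without color break replicate 3 it was -0.07, and 10 of the 57 members changed sign. None of the 23 enzyme totals, those after chorismate included, was called by edgeR, the sole tool used on totals, and 9 had an unadjusted p under 0.05. Among these the total of DAHP synthase was lower in mature fruit by 0.30 ± 0.08 on the log2 scale (edgeR adjusted p = 0.0456), under the size required. When the size requirement was dropped, 7 members passed, 4 higher and 3 lower, against 6.09% of all genes, 2.75% higher and 3.34% lower. The 4 higher ones were the DAHP synthase genes of the Vadar_023604 match, by 0.37 to 0.65, with adjusted p from 0.0024 to 0.0297. The 4 genes of the abundant Vadar_016689 match were at -0.32 to -0.39, with adjusted p from 0.0219 to 0.0541, and of these VaccDscaff7-processed-gene-79.3 passed, as did VaccDscaff42-augustus-gene-46.35 of the Vadar_016353 match at -0.48 and VaccDscaff53-augustus-gene-8.36. The summed FPKM of the Vadar_016689 group was 4.72 to 5.10 times that of the Vadar_023604 group in green libraries, 26.4 to 28.8 times at color break and 14.1 to 16.5 times in mature fruit.

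Among the Vadar_023604 copies, VaccDscaff41-augustus-gene-65.20 (minus strand of scaffold 41, 6515496 to 6521467, 5 exons), chosen after its values were seen, had 9.70, 9.21 and 9.65 FPKM in green, 16.7, 17.8 and 19.7 at color break, and 29.0, 27.2 and 28.0 in mature fruit. It stepped up at each transition without overlap, by 1.198 ± 0.07 on the log2 scale to color break (edgeR adjusted p = 5.9e-07) and by a further 0.62 ± 0.07 to mature (0.0024), the latter under the size of a call.

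From green to mature fruit, which shares its green libraries with the comparison at color break, 36 members rose, 3 fell and 18 were not called, against 24.6% of all genes called, 9.49% rising and 15.1% falling. The median log2 change of the members was 1.81. The genes that fell were VaccDscaff53-augustus-gene-8.36, at -1.75 ± 0.25 (edgeR adjusted p = 0.00021), VaccDscaff114-augustus-gene-3.58, at -1.12 ± 0.22 (0.0018), and VaccDscaff51-augustus-gene-18.25, given above. Under limma on log2(FPKM + 1) none of these calls was made, VaccDscaff114-augustus-gene-3.58 being at -0.66. In the F test over the stages 53 of the 57 tested members had an adjusted p under 0.05, against 59.0% of all genes. The 4 that did not were the DAHP synthase genes VaccDscaff17-snap-gene-117.34 and VaccDscaff45-augustus-gene-76.23, the 3-dehydroquinate synthase gene VaccDscaff42-snap-gene-22.29 and the shikimate kinase gene VaccDscaff24-snap-gene-67.47.

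Further genes of the pathway and around it carry neither GO term and were found by KEGG ortholog. They belong to the steps after chorismate, to the supply and use of the pathway, and to aminotransferases. Shikimate kinase and dehydroquinate dehydratase/shikimate dehydrogenase add 1 tested gene each. Of all 138 tested, 64 rose and 19 fell at color break, 46.4% and 13.8%, beside the 8.89% and 13.9% of all genes tested. Among the 138 were 27 genes that use phenylalanine or shikimate, of which 18 rose and 7 fell. Another 20 were aminotransferase genes, of which 14 rose and none fell. In the branch to phenylalanine and tyrosine 16 of 25 rose and none fell, with a median log2 change of 1.198, and in the branch to tryptophan 2 of 28 rose and 5 fell, with a median of -0.19. The shares of the tryptophan branch, 7.14% rising and 17.9% falling, were near those of all genes, and the difference between the branches was not tested. The total of prephenate aminotransferase, which serves both phenylalanine and tyrosine, changed by 2.42 ± 0.06 (edgeR adjusted p = 1.5e-09). The total of arogenate dehydratase, the phenylalanine step, changed by 1.90 ± 0.09 (1.1e-07). That of arogenate dehydrogenase, the tyrosine step, changed by 1.12 ± 0.05 (1.2e-07), a call lost at 0.83 with library size as the scaling.

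**Figure D4:**
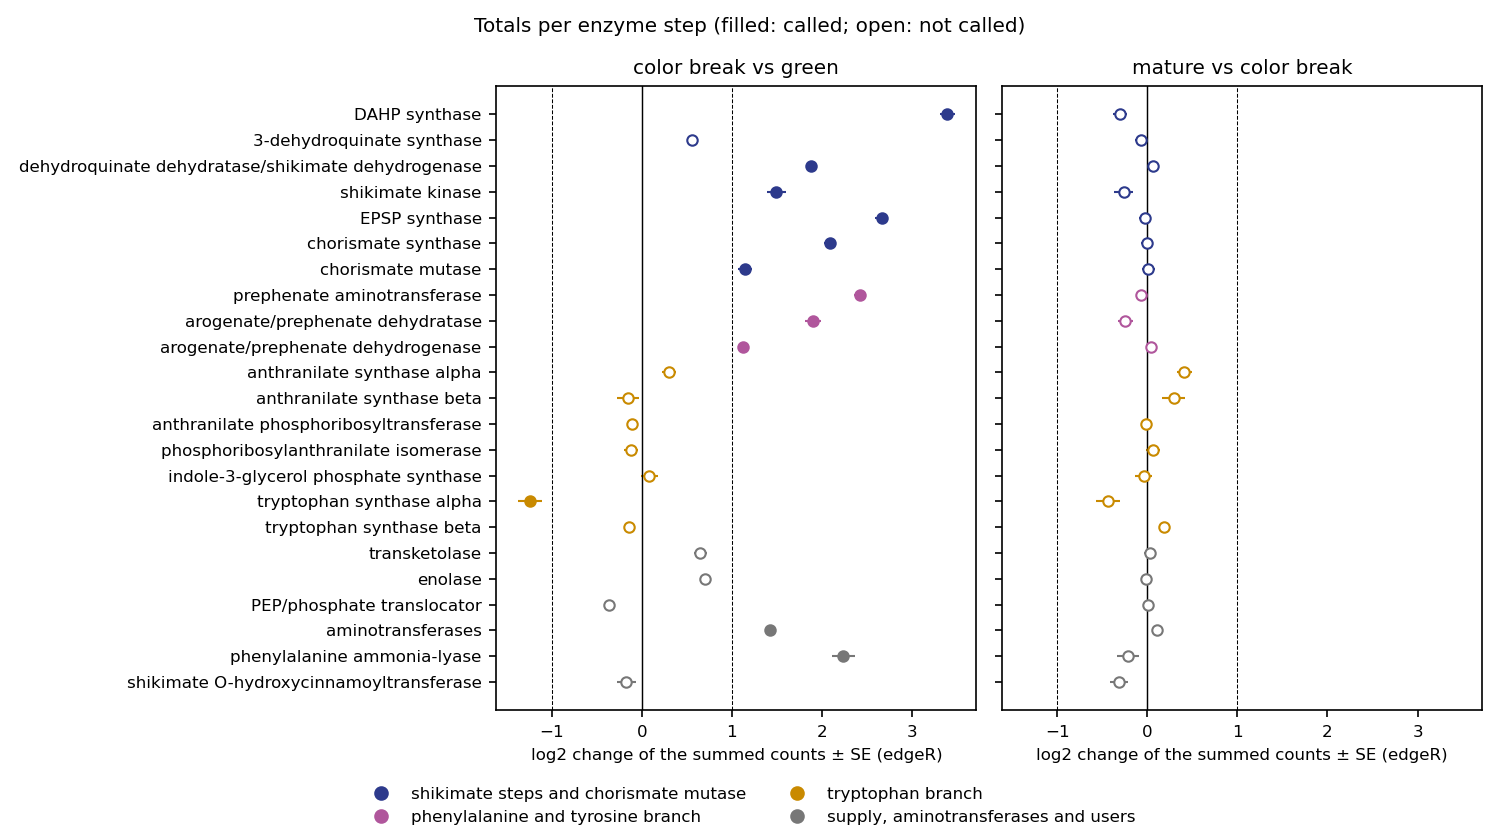
The log2 change ± SE of the summed counts of each enzyme step, from green to color break and from color break to mature, for the shikimate steps, both branches after chorismate, and the supply and use of the pathway. At color break 11 totals are called as higher and 1, tryptophan synthase alpha, as lower, and none is called between color break and mature.

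Of the 7 totals of the tryptophan branch, 1 was called at color break. The total of anthranilate synthase alpha, its entry enzyme, changed by 0.30 ± 0.08 to color break (edgeR adjusted p = 0.0091), and that of tryptophan synthase beta by -0.14 ± 0.06 (0.0797), without a call in either. By gene, 2 of the 4 tested anthranilate synthase alpha genes rose to color break and none fell, where 8.89% of all genes rose. Their log2 changes ran from -0.35 to 2.13. Tryptophan synthase alpha fell by 1.24 ± 0.13 (3.0e-05), from 15.4 ± 0.755 to 5.38 ± 0.739 FPKM (SD, n = 3). Anthranilate synthase alpha was at 19.2 ± 1.14 FPKM at color break and 25.9 ± 2.50 in mature fruit, a log2 change of 0.41 ± 0.08 (0.0185), again under the size of a call. Of its 4 tested genes 1 rose in that comparison and none fell, where 0.763% of all genes rose.

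On the supply side no total was called at color break. Transketolase, which makes erythrose 4-phosphate, changed by 0.65 ± 0.07 (edgeR adjusted p = 4.1e-05) and enolase, which makes phosphoenolpyruvate, by 0.70 ± 0.06 (4.1e-06). The genes assigned by KEGG ortholog to the translocator of phosphoenolpyruvate into the plastid changed by -0.36 ± 0.04 (6.6e-05) as a total. What each of those 26 genes carries was not examined. With library size in place of TMM the 3 totals were at 0.35, 0.41 and -0.66. Mean summed FPKM in green and color break was 272 and 285 for transketolase and 517 and 696 for enolase. For the translocator genes it was 230 and 142. By gene, 4 of 7 tested transketolase genes rose, 6 of 15 enolase genes and 3 of 14 translocator genes, with 7 of the translocator genes and none of the others falling. Over these supply genes 36.1% rose and 19.4% fell, again beside 8.89% and 13.9% of all genes. Phenylalanine ammonia-lyase, which takes phenylalanine into phenylpropanoids, rose by 2.24 ± 0.13 as a total (1.3e-06), with 14 of its 15 tested genes rising, and is the step that uses the product of the pathway. The acyltransferase that joins shikimate to hydroxycinnamic acids changed by -0.17 ± 0.10 (0.186) as a total, while of its 12 tested genes 4 rose and 7 fell.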

How the data were processed

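The deposited table gives FPKM and estimated counts per gene for 9 libraries. The authors' FPKM values are scaled by gene length and library, and the deposited estimated counts are whole numbers proportional to FPKM times length within a library, so they come from coverage estimates. The submitters' processing notes name fastp, HISAT2, StringTie and DESeq2, with versions and a genome build not given in the sources used here. Depth is given as each library's count total, and p-values set the difference between stages against the spread between the deposited replicates.

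Genes with at least 1 FPKM in at least 3 libraries, 48073 in all, were fitted in edgeR 4.0.16 (R 4.3.3) with TMM factors, robust quasi-likelihood and stage as the only term, over all 9 libraries, with Benjamini-Hochberg adjustment. Enzyme totals were fitted after replacing the genes of a step by their sum. The procedure was also run on simulated data in which few genes changed, as many up as down, so that run does not test the scaling. Alternatives used DESeq2 1.42.0, limma 3.58.1 on log2(FPKM + 1) and on log2(FPKM + 0.1), other filters and scalings, and each library left out.

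Named members are, for each enzyme, the gene with the highest mean FPKM and the called genes with the largest rise and fall among those with no overlap between the stages, together with the 3 largest rises and falls of each comparison. Members and lists were chosen with earlier results of these data known. Replicate numbers were not used to pair the samples in the main fit. Deviations of same-numbered libraries correlated at -0.0302 to 0.223 (median 0.0346), and those of differently numbered libraries at -0.174 to 0.117 (median -0.0171). The ranges overlap, so these values do not settle whether the samples were paired. Sequences were not used here.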

Additional observations from a re-analysis of the deposited data

How the results depend on the processing

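At color break between 34 and 40 members rose and 0 to 3 fell in most alternatives. Under limma on log2(FPKM + 1) 31 rose, where 4.68% of all genes rose and 11.4% fell. With a mean of at least 5 FPKM 32 of 44 rose, where 9.50% of all genes rose. Without the fold threshold 49 rose and 4 fell, where 54.0% of all genes were called, 27.0% in each direction. With library size only, which moved the median of all genes to -0.31, 34 rose and 3 fell, where 6.12% of all genes rose and 19.7% fell. In that setting 5 members that were not called changed sign. Leaving out each library in turn gave 36 to 40 members called at color break, 38 to 40 from green to mature and 49 to 53 in the F test. With all libraries these tests called 22.8%, 24.6% and 59.0% of all genes. Shares of all genes with a library left out are not given here. Without color break replicate 3, 36 members rose and 0 fell at color break.

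Between color break and mature the single call became 0 with a mean of at least 5 FPKM or with 5 FPKM or more required in the higher stage, the latter chosen after the data were seen, and 7 without the fold threshold. Of pathway genes outside the set, 83 of 138 were called at color break and 83 from green to mature, and with a mean of at least 5 FPKM 43 of 83 and again 43. All genes were called at 22.8% and 24.6%, and with that mean at 18.6% and 20.2%. Their 4 calls between color break and mature became 0 with a mean of at least 5 FPKM, 0 with 5 FPKM or more in the higher stage, 0 under limma on log2(FPKM + 1), 1 with only the 2 stages compared, 11 without the fold threshold, and 1 to 5 with each library left out. The cause was not tested.

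With the replicate number as a block the members' counts at color break stayed at 36 rising and 1 falling. The F test gave 51, and the outside genes gave 2 calls between color break and mature. Without the block these tests called 22.8%, 59.0% and 1.37% of all genes, and the shares with it are not given here. The labels give the replicate numbers no shared source. Of 58 calls of named genes and totals, 46 held in all alternatives run and none reversed. Dropping the fold threshold and requiring 5 FPKM in the higher stage reuse the main fit, so no call could be lost there. Genes removed by a filter were not counted as lost, and totals were refitted by edgeR alone.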
